A study of Mus musculus with 18 samples.

Results

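Immediate-early genes are the genes that cells switch on within minutes of a growth factor, serum or stress signal, without needing new protein. Most encode transcription factors. FOS proteins (Fos, Fosb, Fosl1) pair with JUN proteins (Jun, Junb) to form the AP-1 factor, in which the paired leucine zippers hold 2 subunits together on DNA. Atf3 is a related zipper factor, Egr1 is a zinc finger factor that answers ERK signalling, Myc is a growth regulator, and Ier2 and Ier3 are short-lived response proteins. In pluripotent cells the ERK pathway drives exit from the naive state, and Myc lies downstream of LIF and STAT3 as well as of WNT and ERK signals.

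The 10 genes described here (Fos, Fosb, Fosl1, Jun, Junb, Atf3, Egr1, Myc, Ier2 and Ier3) were chosen by symbol, and all 10 were found among the 25239 symbols of the deposited table. All 10 passed the filter on low counts, as did 17545 genes in all. The study followed mouse stem cells from the primed to the naive state in 18 RNA libraries, 3 in each of 6 groups. EpiSC, labelled as primed stem cells, are the day 0 start, and D3, D5 and D8, labelled transient, are days 3, 5 and 8 of the conversion. rES, labelled naive stem cells, are the converted cells at its end, and ESC are mouse embryonic stem cells that serve as the naive reference. The labels name the mouse embryo as the source of all groups and give no genotype, strain, medium, feeder layer or treatment for any of them. Nothing in them states that the 3 libraries of a group came from independent cultures, and the spread behind each p-value may then be technical.

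The libraries held 58362230 to 101607352 deposited counts, the highest being D8 replicate 2. Levels are in CPM, counts relative to the library's total scaled by the TMM method, and are given per library and as mean ± SD of 3 libraries. A log2 difference is the first-named group minus the second, with an approximate standard error, and a gene is called when edgeR's adjusted p is under 0.05. The primed markers Fgf5, Otx2, Pou3f1, Dnmt3b, Zic2 and Sox11 summed to 1946 to 2125 CPM in EpiSC and to 152 to 159 CPM in ESC. The 7 naive markers summed to 3658 to 3682 CPM in rES, 3842 to 3988 CPM in ESC and 56.6 to 63.2 CPM in EpiSC. The libraries of D3, D5 and D8 also held markers of other cell types. The 8 trophoblast markers summed to 1316 to 1438 CPM at D3, 828 to 891 CPM at D5 and 654 to 804 CPM at D8, against 4.29 to 9.22 CPM in EpiSC. The 8 feeder fibroblast markers summed to 501 to 656 CPM at D3, 802 to 889 CPM at D5 and 1011 to 1685 CPM at D8, against 31.3 to 47.4 CPM in EpiSC. Of these, 7 were called higher than in EpiSC at each of D3, D5 and D8, against 34.1%, 37.7% and 42.4% of all genes. Col1a1 made up most of the D3 sum, at 404 ± 64.6 CPM. Postn, Lum and Dcn averaged 0.887, 0.725 and 1.35 CPM there. Thy1 went the other way at D5 and D8, at 2.34 ± 0.646 and 1.32 ± 0.198 CPM, against 10.6 ± 2.12 CPM in EpiSC. The 6 primitive endoderm markers summed to 44.9 to 48.3 CPM at D3, 47.3 to 53.7 CPM at D5 and 61.4 to 71.6 CPM at D8, against 1.89 to 3.47 CPM in EpiSC. The part of these markers' cells in the results below was not tested, and in bulk RNA more cells of a type and more RNA per cell cannot be told apart.

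On mouse build GRCm38 (mm10) the FOS genes lie at chr12:85473890-85477273 (Fos), chr7:19302696-19310051 (Fosb) and chr19:5447547-5455946 (Fosl1), and the JUN genes at chr4:95049034-95052222 (Jun) and chr8:84974484-84978718 (Junb). Atf3 lies at chr1:191170296-191218039, Egr1 at chr18:34859823-34864984 and Myc at chr15:61985391-61990374. Ier2 lies at chr8:84661331-84662852 and Ier3 at chr17:35821684-35822923. GENCODE vM21 lists all 10 as protein coding.

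The FOS genes were high at D3. Fos, the founding subunit of AP-1, stood at 1.86, 2.35 and 3.38 CPM in the EpiSC libraries, 40.3, 27.1 and 30.0 CPM at D3, 21.2, 24.6 and 18.8 CPM at D5 and 27.3, 23.1 and 21.7 CPM at D8. It was then 0.826, 1.81 and 1.15 CPM in rES and 9.76, 8.58 and 11.4 CPM in ESC. Every library of D3, D5 and D8 lay above every library of the other 3 groups. Fos was called higher at D3 than in EpiSC (log2 difference 3.68 ± 0.25, adjusted p = 4.84e-10), at D5 (3.09 ± 0.25, adjusted p = 2.3e-09) and at D8 (3.25 ± 0.25, adjusted p = 1.07e-09). The order of the means was D3, D8, D5, ESC, EpiSC and rES. D3 and D8 were not told apart (adjusted p = 0.0905), nor D8 and D5 (adjusted p = 0.596), while D5 was above ESC (adjusted p = 0.000225). D5 was called lower than D3 (log2 difference -0.59 ± 0.22, adjusted p = 0.0286), but that call was lost without D3 replicate 1 (adjusted p = 0.155), D5 replicate 1 (0.0681) or D5 replicate 3 (0.104).

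Fosb, a close relative of Fos, was highest at D3 and fell back by D5. It stood at 0.321, 0.507 and 0.436 CPM in EpiSC, 26.3, 11.6 and 12.9 CPM at D3, 5.08, 4.98 and 3.29 CPM at D5 and 4.04, 2.99 and 4.67 CPM at D8. The rES libraries held 0.159, 0.247 and 0.0766 CPM and the ESC libraries 1.07, 0.557 and 1.22 CPM. D3 replicate 1 was the highest by far, and all 3 D3 libraries lay above every other library of the series. Fosb averaged 17.0 ± 8.15 CPM at D3, against 0.421 ± 0.0938 CPM in EpiSC (log2 difference 5.32 ± 0.42, adjusted p = 3.27e-09). D5 was lower than D3 (-1.93 ± 0.35, adjusted p = 0.000107), and D5 and D8 were not told apart (adjusted p = 0.679). In rES the counts were 10, 15 and 5 per library, a mean below the floor of 12 counts per library (0.191 CPM), so differences from rES are given as bounds. Both calls at these low levels depended on single libraries. Fosb was called at least 2.21-fold lower in rES than in EpiSC (adjusted p = 0.0172), a call that was lost without EpiSC replicate 2 (adjusted p = 0.0582) or rES replicate 3 (0.0858). ESC was called above EpiSC (log2 difference 1.17 ± 0.40, adjusted p = 0.0163), which was lost without EpiSC replicate 1 (adjusted p = 0.0641) or ESC replicate 3 (0.0763).

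Fosl1, also called Fra-1 and known in trophoblast and invasive epithelial cells, was a D3 gene. It stood at 0.369, 0.602 and 1.09 CPM in EpiSC, 12.5, 16.3 and 10.6 CPM at D3, 0.401, 0.0163 and 0.287 CPM at D5 and 0.440, 0.336 and 0.299 CPM at D8. No rES library had a count, which allows up to 0.191 CPM, and the ESC libraries held 1 count in all. ESC was at least 3.64-fold lower than EpiSC. The D3 libraries stood alone, all above 10 CPM, while no other library exceeded 1.09 CPM. Fosl1 averaged 13.1 ± 2.89 CPM at D3, against 0.687 ± 0.368 CPM in EpiSC (log2 difference 4.25 ± 0.56, adjusted p = 5.85e-06). It was lower at D5 than at D3 (-5.80 ± 0.63, adjusted p = 7.42e-07), or -6.43 without D5 replicate 1. Against D3, the rES level was at least 68.8-fold lower. At D5 it was called lower than EpiSC (-1.54 ± 0.59, adjusted p = 0.028), a call lost without EpiSC replicate 3 (adjusted p = 0.152) or D5 replicate 2 (0.0704), with -2.18 without D5 replicate 1. The D8 and EpiSC levels were not told apart (adjusted p = 0.135), but were without D5 replicate 2 (0.0439). Fosl1 exons overlap those of Ccdc85b on the other strand, and the strand setting of the counting is not given in the sources used here. Ccdc85b averaged 30.4 ± 4.42 CPM at D3 and 33.9 ± 2.86 CPM in EpiSC, a difference that was not called (log2 difference -0.16 ± 0.16, adjusted p = 0.402). In the other 4 groups its mean, like that of Fosl1, was below EpiSC. Ccdc85b averaged 4.35 ± 0.75 CPM at D5, lower than at D3 (-2.80 ± 0.17, adjusted p = 2.31e-10), and it was called lower than in EpiSC at D5 (-2.96 ± 0.17), D8 (-2.72 ± 0.17), rES (-1.31 ± 0.16) and ESC (-1.57 ± 0.16). Reads of these partners cannot be told apart if strand was not used.

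**Figure D1:**
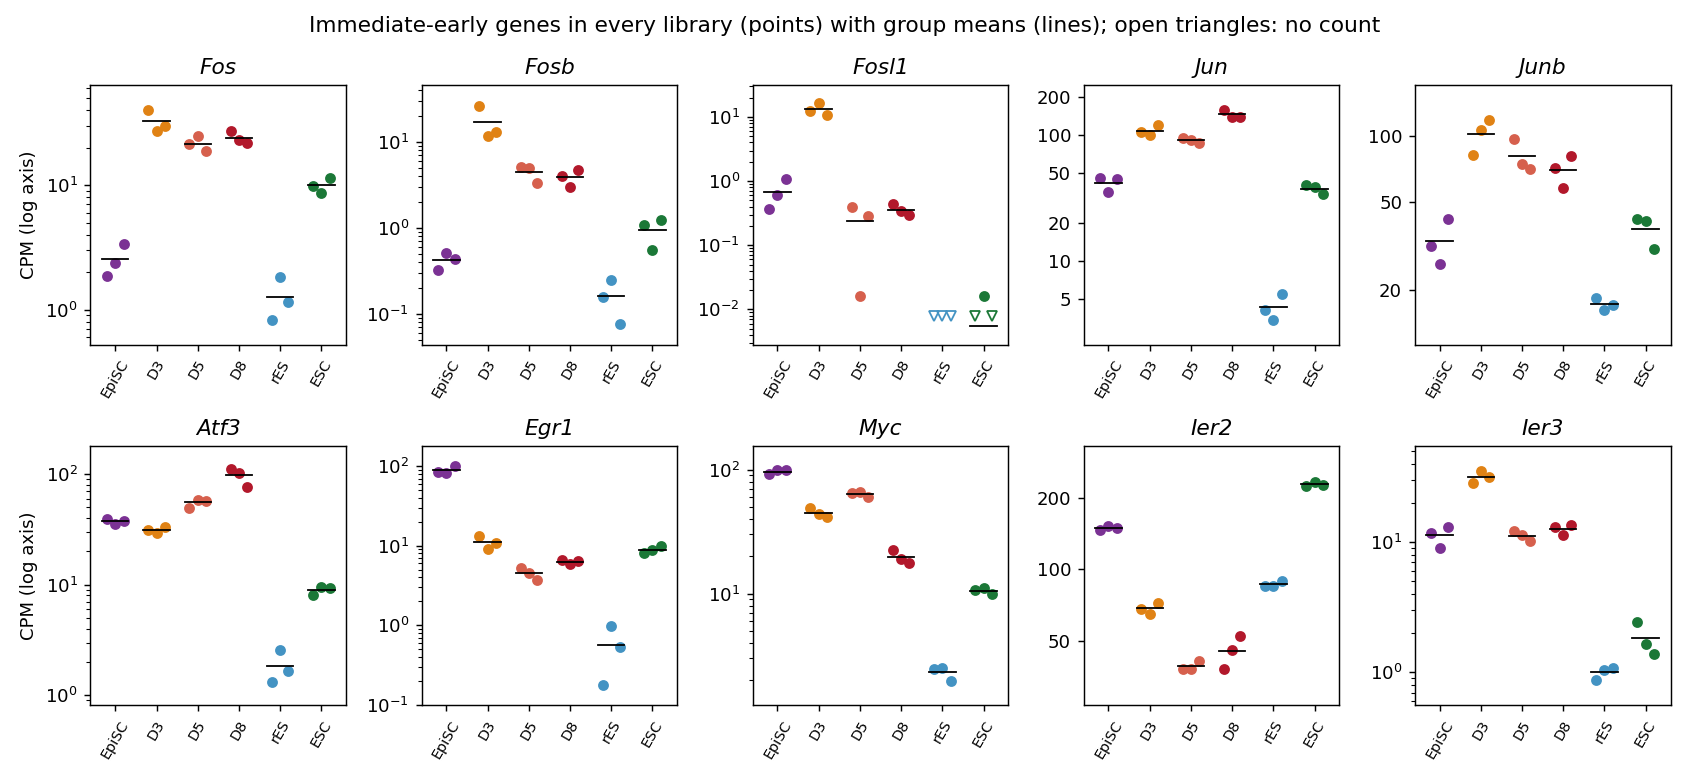
CPM of the 10 genes on log axes in each of the 18 libraries, by group, with group means as lines and open triangles for libraries without a count. Fos, Fosb, Jun and Junb are higher at D3, D5 and D8 than in the other groups, Egr1 and Myc are highest in EpiSC, and 9 of the 10 genes are lowest in rES, where Ier2 is the exception.

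JUN subunits were higher in the same 3 groups, by less. Jun, the partner that can also pair with itself, stood at 46.0, 35.3 and 44.6 CPM in EpiSC, 106, 100.1 and 119.6 CPM at D3, 94.6, 92.3 and 87.3 CPM at D5 and 159, 140.1 and 139 CPM at D8. It was 4.12, 3.43 and 5.45 CPM in rES and 40.0, 39.0 and 34.0 CPM in ESC. D8 was the highest group and its libraries overlapped with none of the others. Jun rose at D3 (log2 difference 1.37 ± 0.13 against EpiSC, adjusted p = 3.62e-08), D5 (1.12 ± 0.13, adjusted p = 2.93e-07) and D8 (1.80 ± 0.13, adjusted p = 4.97e-10). D5 and D3 were not told apart (adjusted p = 0.103), though they were with those groups fitted alone (0.0209). D8 lay above D5 (0.67 ± 0.13, adjusted p = 0.00026) and above D3 (adjusted p = 0.0062). ESC and EpiSC were not told apart (adjusted p = 0.294). Exons of Jun overlap those of the antisense gene Junos, which was not analysed here, and without a stated strand setting reads of Junos may be among those of Jun.

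Junb, often a brake on Jun, stood at 31.7, 26.4 and 41.8 CPM in EpiSC, 81.6, 106 and 118 CPM at D3, 96.7, 74.2 and 70.8 CPM at D5 and 71.3, 58.2 and 81.1 CPM at D8. It was 18.4, 16.3 and 17.1 CPM in rES and 42.0, 41.0 and 30.8 CPM in ESC. The D5 libraries overlapped with those of D3 and of D8, all D8 libraries lay below all D3 libraries, and all 3 groups lay above the rest. Junb rose at D3 (log2 difference 1.61 ± 0.18 against EpiSC, adjusted p = 3.57e-07), D5 (1.27 ± 0.18, adjusted p = 4.33e-06) and D8 (1.07 ± 0.18, adjusted p = 2.83e-05). The differences between neighbours in the order D3, D5 and D8 were not called (adjusted p = 0.106 and 0.381), while D8 was below D3 (log2 difference -0.54 ± 0.18, adjusted p = 0.012). D5 was called below D3 without D3 replicate 1 (adjusted p = 0.0346) or D5 replicate 1 (0.0371). Junb overlaps exons of Prdx2 on the other strand. Prdx2 was called lower at D3, D5 and D8, at 316 ± 34.7 CPM at D3 and 115 ± 4.82 CPM at D8, against 406 ± 19.6 CPM in EpiSC, while Junb was called higher in those 3 groups. In rES it moved the same way as Junb. Prdx2 averaged 191 ± 3.94 CPM in rES, lower than in EpiSC (log2 difference -1.08 ± 0.07, adjusted p = 1.83e-10) and than in ESC at 323 ± 5.81 CPM (-0.75 ± 0.07, adjusted p = 3.73e-07). The limit on strand given for Fosl1 holds for Junb too.

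Atf3, a stress-induced zipper factor that can repress or activate with JUN partners, was high late. It stood at 39.3, 35.6 and 37.7 CPM in EpiSC, 31.3, 29.2 and 33.4 CPM at D3, 49.5, 58.8 and 57.5 CPM at D5 and 111, 103 and 76.7 CPM at D8. It was 1.32, 2.59 and 1.67 CPM in rES and 8.06, 9.60 and 9.27 CPM in ESC. The 6 groups did not overlap with each other in any pair of neighbours. D3 was not called different from EpiSC (log2 difference -0.26 ± 0.16, adjusted p = 0.153), though it was with those groups fitted alone (adjusted p = 0.0327). Atf3 then rose at D5 (0.82 ± 0.16 against D3, adjusted p = 0.000217) and again at D8 (0.81 ± 0.16 against D5, adjusted p = 0.000337). Atf3 is also a target of the integrated stress response, which was counted as a list. Of 10 such genes 8 were lower and 1 higher at D3 than in EpiSC, 7 and 2 at D5 and 7 and 3 at D8 (median log2 differences -1.81, -1.95 and -1.45, against 0.00, 0.02 and 0.19 over all genes). Of all genes tested 30.2%, 34.3% and 34.5% were called lower in these comparisons and 34.1%, 37.7% and 42.4% higher. Chac1, which degrades glutathione, averaged 3.16 ± 0.409 CPM at D8, against 99.1 ± 13.7 CPM in EpiSC. Ddit3, a stress-induced zipper factor, averaged 23.6 ± 2.15 CPM at D8 and 16.3 ± 0.944 CPM in EpiSC.

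The promoters of these AP-1 genes are shown because Fos, Fosb, Jun, Junb and Atf3 were the 5 members called higher at both D5 and D8 than in EpiSC. The starts are RefSeq's, and those of Atf3 and Fosb lie inside the genes as GENCODE draws them. RefSeq's promoter table on GRCm38.p6, the assembly also called mm10, matched 6 of the 10 members: these 5 and Ier3. The 150 bases before each start are written along the strand of the gene, and capitals mark TGACG (the core of a cyclic AMP response element, on either strand), TGANNTCA (its 8-base form and variants) and TATAA. A full palindromic cyclic AMP response element would match both of the first motifs, and none of these 5 stretches holds one.
Fos, chr12:85473740-85473889, plus strand: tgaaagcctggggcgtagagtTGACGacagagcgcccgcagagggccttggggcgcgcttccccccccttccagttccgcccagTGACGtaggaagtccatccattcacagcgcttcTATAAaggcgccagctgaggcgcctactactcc
Fosb, chr7:19310046-19310195, minus strand: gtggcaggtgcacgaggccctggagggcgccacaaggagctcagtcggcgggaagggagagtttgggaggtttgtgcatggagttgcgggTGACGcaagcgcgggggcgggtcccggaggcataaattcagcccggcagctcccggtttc
Jun, chr4:95052223-95052372, minus strand: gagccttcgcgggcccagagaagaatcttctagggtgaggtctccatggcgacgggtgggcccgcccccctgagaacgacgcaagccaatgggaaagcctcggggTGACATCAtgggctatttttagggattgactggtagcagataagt
Junb, chr8:84978749-84978898, minus strand: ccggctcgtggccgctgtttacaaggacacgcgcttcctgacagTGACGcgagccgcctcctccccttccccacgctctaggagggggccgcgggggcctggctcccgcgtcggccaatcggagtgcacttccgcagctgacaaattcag
Atf3, chr1:191183334-191183483, minus strand: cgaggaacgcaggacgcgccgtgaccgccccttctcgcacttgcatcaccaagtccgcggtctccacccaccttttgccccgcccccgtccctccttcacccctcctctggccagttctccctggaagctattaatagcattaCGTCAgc

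In the 250 bases before the start, searched on both strands, TGACG stood in 4 of the 6 members with a promoter (Fos, Fosb, Junb and Atf3), against 17.8% of 32851 promoters in the table. Jun carried TGACATCA, a match to TGANNTCA, found in 11.9% of promoters. TATAA was in Fos and Ier3 and in 22.8% of promoters. GCGNGGGCG, the EGR site, was in Fosb and in 4.70% of promoters. The CArG box of serum response factor (1.47% of promoters), the AP-1 site TGANTCA (6.75%) and the MYC site CACGTG (6.02%) were in none of the 6 windows. A match describes letters and not binding, and a window without one says nothing of the factor.

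Egr1 and Myc were highest in EpiSC. Egr1 stood at 85.9, 81.7 and 102 CPM in EpiSC, 13.2, 9.09 and 11.0 CPM at D3, 5.26, 4.59 and 3.69 CPM at D5 and 6.58, 5.86 and 6.35 CPM at D8. It was 0.175, 0.990 and 0.536 CPM in rES and 8.16, 8.81 and 9.89 CPM in ESC. EpiSC stood far above all other groups, and rES below them. Egr1 fell at D3 (log2 difference -3.02 ± 0.25 against EpiSC, adjusted p = 6.86e-09), D5 (-4.31 ± 0.27, adjusted p = 6.94e-11) and D8 (-3.84 ± 0.26, adjusted p = 2.01e-10). The middle of its order, D3, ESC, D8 and D5, held no called neighbours (adjusted p = 0.259, 0.0654 and 0.133), but D8 was above D5 without rES replicate 1 (adjusted p = 0.0372) or with counts divided by 4 (0.048). In rES it was 159-fold lower than in EpiSC (-7.31 ± 0.33, adjusted p = 9.76e-13), and that difference was -7.96 without rES replicate 2.

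Myc stood at 91.7, 98.4 and 98.7 CPM in EpiSC, 48.8, 43.9 and 41.3 CPM at D3, 64.5, 66.0 and 60.2 CPM at D5 and 22.3, 19.1 and 17.8 CPM at D8. It was 2.45, 2.51 and 1.98 CPM in rES and 10.7, 11.1 and 9.88 CPM in ESC. The 6 groups did not overlap, and all 5 neighbours in the order EpiSC, D5, D3, D8, ESC and rES differed (highest adjusted p = 0.000183). D5 was above D3 (log2 difference 0.51 ± 0.10, adjusted p = 0.000183) before D8 fell below D5 (-1.69 ± 0.10, adjusted p = 5.1e-10). Against EpiSC the D8 difference was -2.29 ± 0.10 (adjusted p = 4.92e-13) and the rES difference -5.38 ± 0.12 (adjusted p = 1.73e-16).

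The response proteins parted from each other. Ier2, a nuclear response protein, had the highest CPM of the 10 in EpiSC, rES and ESC. It stood at 147, 152 and 149.6 CPM in EpiSC, 68.1, 65.0 and 72.6 CPM at D3, 38.2, 38.3 and 41.4 CPM at D5 and 38.3, 45.9 and 52.6 CPM at D8. It was 85.6, 85.2 and 89.2 CPM in rES and 225, 233 and 226 CPM in ESC. Ier2 was lowest at D5 and D8, whose libraries overlapped, and highest in ESC. It fell at D3 (log2 difference -1.13 ± 0.09 against EpiSC, adjusted p = 2.16e-09) and further at D5 (-0.80 ± 0.09 against D3, adjusted p = 2.87e-07). The small difference of D8 against D5 (0.21 ± 0.09, adjusted p = 0.0495) was lost in 15 of 18 fits that left out 1 library, with adjusted p up to 0.307 without D8 replicate 3. In rES against D8 it was the only one of the 10 called higher (0.93 ± 0.09, adjusted p = 2.02e-08).

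Ier3, an early response protein tied to cell survival, was also highest at D3. It stood at 11.8, 8.98 and 13.2 CPM in EpiSC, 28.5, 35.3 and 31.8 CPM at D3, 12.3, 11.3 and 10.2 CPM at D5 and 13.2, 11.3 and 13.6 CPM at D8. It was 0.874, 1.04 and 1.09 CPM in rES and 2.45, 1.64 and 1.38 CPM in ESC. D3 was apart from the rest, and the EpiSC, D5 and D8 libraries overlapped. Ier3 rose at D3 (log2 difference 1.49 ± 0.18 against EpiSC, adjusted p = 8.45e-07), was lower at D5 than at D3 (-1.50 ± 0.18, adjusted p = 1.07e-06), and at D5 was not told apart from EpiSC (-0.01 ± 0.18, adjusted p = 0.995).

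Counted by comparison, the members split at D3, D5 and D8, and all were lower in rES. At D3 against EpiSC 6 of 10 were higher (Fos, Fosb, Fosl1, Jun, Junb and Ier3) and 3 lower (Egr1, Myc and Ier2), against a background of 34.1% of all genes tested called higher and 30.2% lower. At D5 against EpiSC 5 were higher and 4 lower (background 37.7% and 34.3%), and at D8 against EpiSC 5 were higher and 3 lower (background 42.4% and 34.5%). The shares at D5 and D8 lie near the background, so the sizes given above, more than the counts, describe these genes. In rES against EpiSC all 10 were lower (background 37.5% lower, 31.9% higher), with a median log2 difference of -3.38, or -2.56 with Fosb and Fosl1 at their bounds, against -0.09 over all genes. In ESC against EpiSC 3 were higher (Fos, Fosb and Ier2) and 5 lower (Atf3, Egr1, Fosl1, Ier3 and Myc; background 31.2% and 36.1%). All of these comparisons share the 3 EpiSC libraries. The share of all genes called in either direction in the comparisons used only to order the groups was 67.5% for D8 against D3, 70.3% for rES against D3 and 75% for rES against D5. Against ESC it was 70% for D3, 73.6% for D5 and 71.1% for D8.

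**Figure D2:**
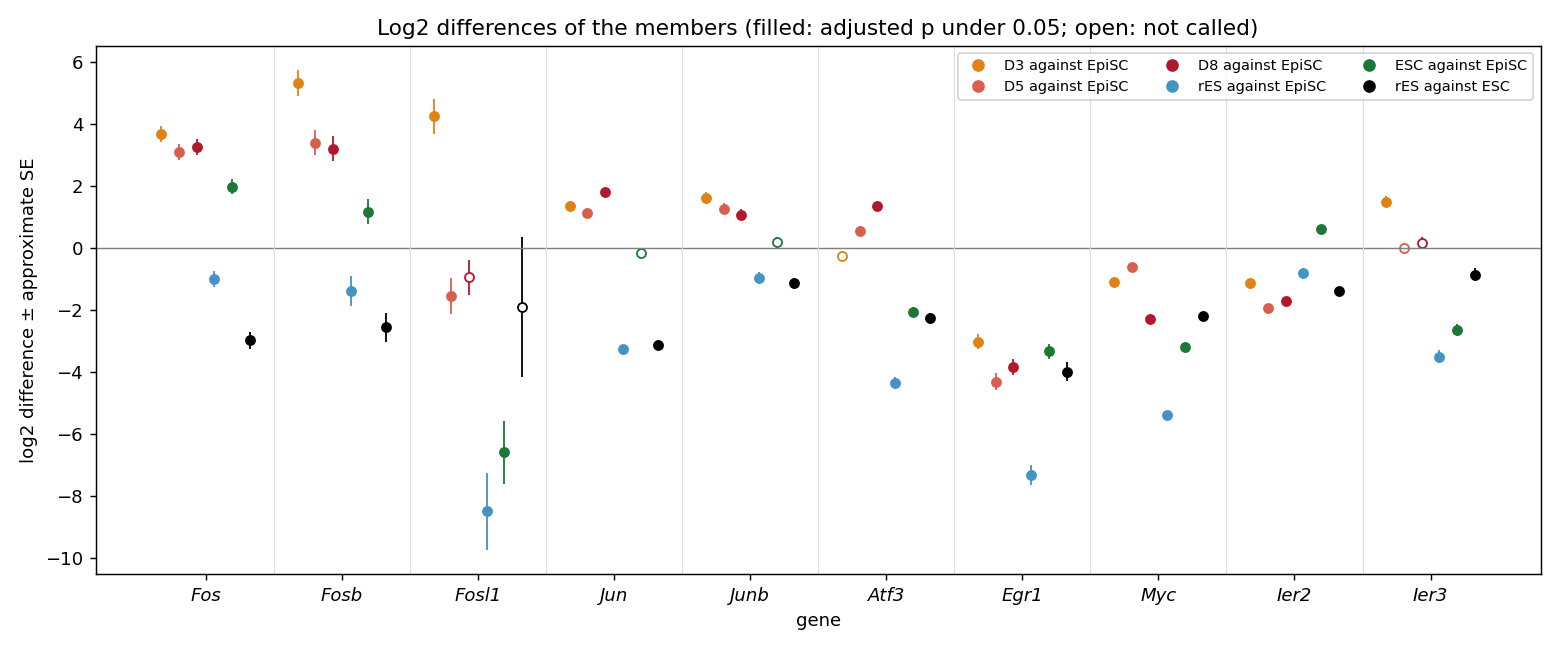
Log2 differences of each gene with approximate standard errors for D3, D5, D8, rES and ESC against EpiSC and for rES against ESC, filled where adjusted p was under 0.05. The blue points of rES against EpiSC lie below 0 for all 10 genes, and the black points of rES against ESC lie below 0 for all 10, with Fosl1 not called. The points of Fosl1 in rES and ESC and of Fosb in rES are fitted values of genes under the floor and give no size of change.

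Step by step, D5 against D3 had 2 members higher (Atf3 and Myc; background 29.9%) and 6 lower (Egr1, Fos, Fosb, Fosl1, Ier2 and Ier3; background 29.6%). D8 against D5 had 3 higher (Atf3, Ier2 and Jun; background 25.1%) and 1 lower (Myc; background 22%), with Ier2 lost as above. The last step, rES against D8, had 9 lower (background 38.4%) and Ier2 higher (background 32.7%), with a median log2 difference of -3.96 over the members (-3.57 with Fosb and Fosl1 at their bounds) and -0.09 over all genes. In that step Atf3 averaged 1.86 ± 0.656 CPM in rES, against 97.0 ± 18 CPM at D8 (log2 difference -5.71 ± 0.20, adjusted p = 3.19e-14). Jun averaged 4.33 ± 1.03 CPM in rES and 146 ± 11.2 CPM at D8 (-5.07 ± 0.15, adjusted p = 5.31e-15).

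The converted cells were set against the reference ESC to ask how alike the naive groups are. Of the 10 members 9 were lower in rES and none higher, against a background of 17.9% of all genes called lower and 15.6% higher. The median log2 difference was -2.23, or -2.27 with Fosb at its bound and without Fosl1, against 0.00 over all genes. For those 9 genes every rES library lay below every ESC library, as was so for 27.3% of all genes tested, while 26.4% had every rES library above. The 3 largest of the called differences that did not rest on a bound were in Egr1, Jun and Fos. Egr1 averaged 0.567 ± 0.408 CPM in rES and 8.95 ± 0.876 CPM in ESC, 15.8-fold lower (log2 difference -3.99 ± 0.31, adjusted p = 4.14e-08), and -4.64 without rES replicate 2. Jun averaged 4.33 ± 1.03 CPM in rES and 37.7 ± 3.24 CPM in ESC, 8.69-fold lower (-3.12 ± 0.14, adjusted p = 9.77e-11). Fos averaged 1.26 ± 0.504 CPM in rES and 9.92 ± 1.42 CPM in ESC, 7.85-fold lower (-2.98 ± 0.26, adjusted p = 1.8e-07).

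The smaller differences of rES against ESC followed the same direction. Atf3 (log2 difference -2.27 ± 0.19, adjusted p = 8.54e-08), Myc (-2.19 ± 0.11, adjusted p = 2.79e-10) and Ier2 (-1.40 ± 0.09, adjusted p = 3.17e-09) were followed by Junb (-1.14 ± 0.18, adjusted p = 0.000116) and Ier3 (-0.86 ± 0.21, adjusted p = 0.00424). Fosb was at least 4.96-fold lower (adjusted p = 0.000326). Fosl1, with no count in rES and 1 in ESC, was not called (adjusted p = 0.569). Most of the feeder fibroblast markers moved with these genes. The 8 summed to 17.4 to 19.4 CPM in rES and 132 to 175 CPM in ESC, and 6 of the 8 were lower in rES and none higher. Pdgfrb (12.4 ± 1.78 CPM in rES, 11.4 ± 0.75 CPM in ESC) and Thy1 (1.03 ± 0.278 and 0.805 ± 0.528 CPM) were not called. Dcn was at 0 in rES, and Col1a1 averaged 2.92 ± 0.941 CPM in rES and 79.2 ± 14.5 CPM in ESC. Of the trophoblast markers, 4 of 8 were higher in rES and 1 lower, and they summed to 169.9 to 175 CPM in rES and 84.5 to 92.7 CPM in ESC. Tfap2c made up most of both sums, at 164 ± 2.14 CPM in rES and 82.8 ± 5.02 CPM in ESC. No other trophoblast marker averaged above 2.8 CPM in rES or 4.49 CPM in ESC. The 6 primitive endoderm markers summed to 14.1 to 15.6 CPM in rES and 6.84 to 9.48 CPM in ESC. The part of these cell types in the difference between rES and ESC was not tested. The naive markers themselves gave 1 higher and 1 lower of 7. All these marker counts are to be read against 15.6% higher and 17.9% lower over all genes tested.

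Set within their families and per length, the members made up changing parts of the AP-1 and MYC pools. Here the CPM of each gene was divided by its exon length in kilobases in GENCODE vM21. The summed FOS family, with Fosl2 added, was 3.25 ± 0.740 CPM per kilobase in EpiSC, 30.7 ± 3.64 at D3, 24.6 ± 1.59 at D5, 31.0 ± 3.05 at D8, 0.707 ± 0.239 in rES and 4.67 ± 0.582 in ESC. Fos held 32.9% ± 5.23 of it in EpiSC, 44.8% ± 5.01 at D3, 32.9% ± 0.833 at D8, 74.9% ± 5.19 in rES and 90.1% ± 2.06 in ESC. Without division by length Fos held less than Fosl2 at D3 (23.6% against 54.7%) and in rES (43.7% against 50.7%). Fosl1 held 21.3% ± 5.29 at D3 and 0.477% ± 0.395 at D5. Fosl2, a slower FOS relative, held 54.9% ± 8.88 in EpiSC, 25.4% ± 3.88 at D3, 59.5% ± 2.94 at D5 and 64.5% ± 1.04 at D8. In rES it held 21.5% ± 4.62 and in ESC 6.68% ± 2.85. Its own level averaged 193 ± 17.8 CPM at D8 and 1.40 ± 0.151 CPM in rES, against 17.1 ± 3.65 CPM in EpiSC (log2 differences 3.50 ± 0.17 and -3.61 ± 0.19).

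In the JUN family Jund, the third JUN subunit, held most of the pool in every group, from 67.8% ± 0.733 at D8 to 89.7% ± 0.537 in rES. Jun held 13.5% ± 1.27 in EpiSC, 10.4% ± 1.31 at D3, 10.5% ± 0.570 at D5, 19.4% ± 1.79 at D8, 1.58% ± 0.362 in rES and 7.99% ± 0.304 in ESC. Junb held between 8.74% ± 0.405 in rES and 14.8% ± 2.0 in EpiSC. Jund itself was higher than in EpiSC at D3 (log2 difference 1.85 ± 0.10, adjusted p = 3.39e-11), D5 (1.59 ± 0.10, adjusted p = 1.19e-10) and D8 (1.21 ± 0.10, adjusted p = 4.37e-09), and lower in rES than in ESC (-0.64 ± 0.10, adjusted p = 0.000105). It averaged 128 ± 1.65 CPM in rES, against 116 ± 8.31 CPM in EpiSC, a difference that was not called (log2 difference 0.15 ± 0.10, adjusted p = 0.209).

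In the MYC family Myc held 41.0% ± 1.40 of the pool in EpiSC, 30.6% ± 2.72 at D3, 58.2% ± 1.46 at D5, 22.9% ± 3.91 at D8, 1.76% ± 0.223 in rES and 10.7% ± 0.0413 in ESC. Mycn, its embryonic relative, averaged 109.6 ± 2.13 CPM in rES and 131 ± 8.38 CPM in EpiSC, a difference that was not called (log2 difference -0.25 ± 0.13, adjusted p = 0.0873), while it was lower at D5 at 24.1 ± 1.47 CPM (-2.44 ± 0.14, adjusted p = 1.48e-11). Mycl averaged 57.8 ± 1.3 CPM in rES, against 19.5 ± 2.92 CPM in ESC (1.57 ± 0.10, adjusted p = 3.82e-09). The summed MYC family was 48.4 ± 0.460 CPM per kilobase in rES and 36.2 ± 2.0 in ESC.

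**Figure D3:**
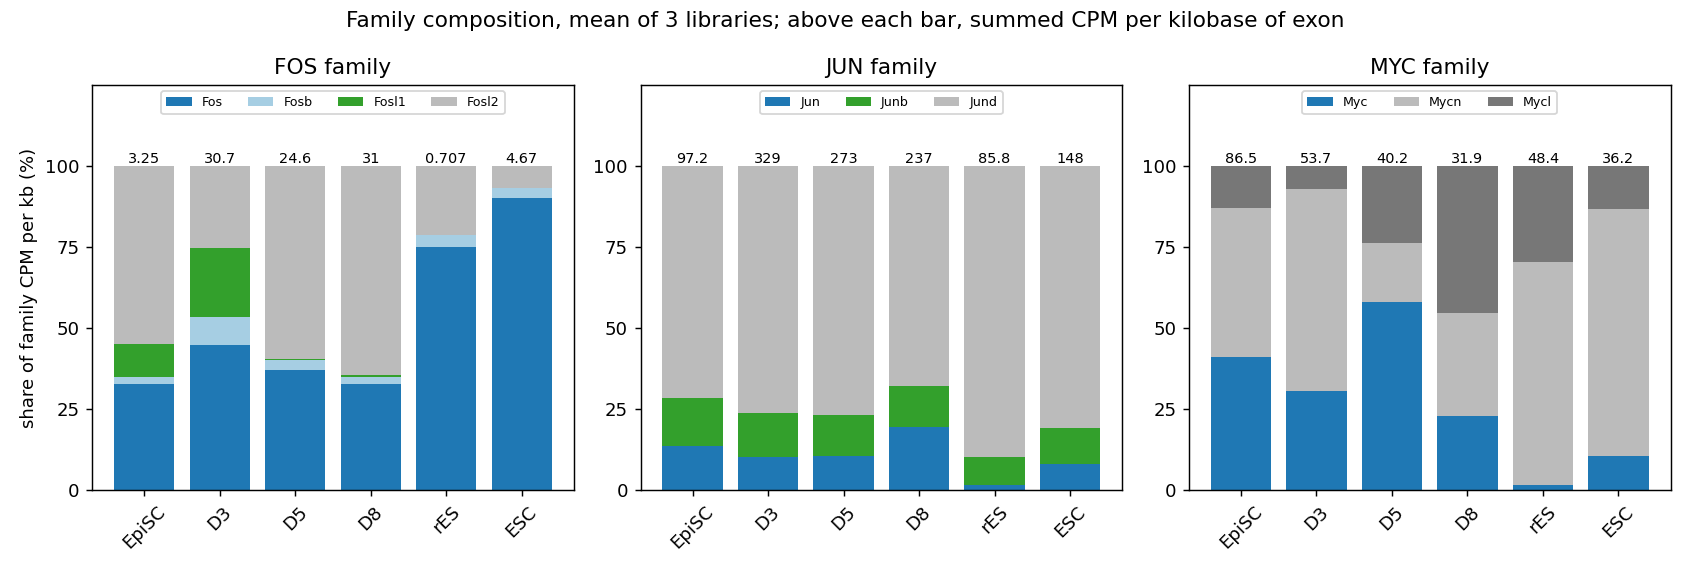
Stacked bars of the mean share of each FOS, JUN and MYC family gene in its family's CPM per kilobase of exon, by group, with the family's sum above each bar. Fosl1 is visible at D3 and in EpiSC, and Fosl2 takes 54.9% in EpiSC, 59.5% at D5 and 64.5% at D8. Jund takes most of the JUN pool in every group, and Myc nearly leaves the MYC pool in rES.

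Other genes of the same pathways were counted from lists, to be read against the shares of all genes called, which in comparisons with EpiSC ran from 31.2% to 42.4% higher and from 30.2% to 37.5% lower. Of 25 other immediate-early genes 16 were higher at D3 than in EpiSC and 4 lower, 16 and 6 at D5 and 16 and 6 at D8, with median log2 differences of 0.53, 1.5 and 1.21, against 0.00, 0.02 and 0.19 over all genes. In rES against EpiSC 8 were higher and 10 lower (median 0.03), and in rES against ESC 4 were higher and 11 lower (median -0.47, against 0.00 over all genes). Of all genes tested 15.6% were called higher and 17.9% lower in rES against ESC. Nr4a1, an orphan nuclear receptor of the immediate-early class, was lower at D5, at 2.91 ± 0.347 CPM, against 34.8 ± 2.95 CPM in EpiSC (log2 difference -3.58 ± 0.17). Gadd45g, a growth arrest gene, averaged 51.6 ± 8.29 CPM at D5 and 3.43 ± 0.518 CPM in EpiSC (3.91 ± 0.22). Arc and Ccn2 were higher in ESC, at 19.5 ± 3.22 and 169 ± 5.99 CPM, against 1.07 ± 0.398 and 12.2 ± 1.64 CPM in EpiSC. Fosl2 was lower there, at 2.94 ± 0.935 CPM, against 17.1 ± 3.65 CPM in EpiSC.

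Upstream genes were mixed. Of 12 transcriptional regulators of the class 8 were higher and 3 lower at D3 than in EpiSC (median log2 difference 0.67), and 4 were higher and 5 lower in ESC (median 0.01). Srf, the serum response factor, was lower in every group than in EpiSC, and averaged 68.6 ± 7.35 CPM at D8, 65.8 ± 4.4 CPM in rES and 81.3 ± 6.59 CPM in ESC, against 168 ± 7.38 CPM in EpiSC. Of 22 genes of the MAP kinase cascade 9 were higher and 7 lower at D5 than in EpiSC (median 0.08, against 0.02 over all genes). Rps6ka2, an ERK-activated kinase, was among the lower, at 7.05 ± 0.945 CPM at D5 and 178 ± 7.96 CPM in EpiSC. Map2k3 was among the higher, at 183 ± 5.24 CPM at D5 and 29.9 ± 0.297 CPM in EpiSC. Of 15 feedback genes 10 were higher and 1 lower at D3 than in EpiSC, 8 and 4 at D5 and 8 and 7 at D8. The medians were 0.48, 0.31 and 0.45, against 0.00, 0.02 and 0.19 over all genes. In rES 1 was higher and 12 lower than in EpiSC (median -1.28, against -0.09). Dusp8, a phosphatase of the list, averaged 161 ± 6.61 CPM at D5, against 6.37 ± 1.47 CPM in EpiSC (log2 difference 4.66 ± 0.21). Dusp6, the ERK phosphatase that ERK itself induces, averaged 46.2 ± 0.471 CPM at D3, 0.769 ± 0.303 CPM at D5 and 2.5 ± 0.444 CPM in rES, against 477 ± 33.3 CPM in EpiSC. Nab2, the corepressor that EGR1 induces, averaged 3.49 ± 0.741 CPM at D5 and 25.7 ± 7.61 CPM in EpiSC (log2 difference -2.88 ± 0.26).

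Known targets were counted the same way. Of 15 AP-1 targets 10 were higher and 2 lower than in EpiSC at D3, at D5 and at D8 (medians 1.40, 0.90 and 1.05, against 0.00, 0.02 and 0.19 over all genes), and 3 were higher and 7 lower in rES (median -2.05, against -0.09). Of all genes tested 34.1%, 37.7% and 42.4% were called higher at D3, D5 and D8 and 30.2%, 34.3% and 34.5% lower, with 31.9% higher and 37.5% lower in rES. Plaur, the urokinase receptor, averaged 159 ± 38.3 CPM at D3 and 1.59 ± 0.494 CPM in rES, against 27.5 ± 2.67 CPM in EpiSC, and the adhesion receptor Cd44 averaged 56.4 ± 4.38 CPM at D3 and 0.523 ± 0.143 CPM in rES, against 6.88 ± 0.720 CPM. Ccnd1 went against them at D5, at 9.78 ± 0.948 CPM, against 243 ± 9.09 CPM in EpiSC (log2 difference -4.64 ± 0.15). Of 22 MYC targets 3 were higher and 16 lower at D3, and all 22 were lower at D5 and at D8 (medians -1.17 and -1.45, against 0.02 and 0.19 over all genes). In rES against D8 20 of the 22 were higher and 2 lower (median 0.93), against 32.7% and 38.4% of all genes tested. In that step Myc fell (log2 difference -3.09 ± 0.11, adjusted p = 4.91e-14) and Mycn rose (1.70 ± 0.13, adjusted p = 1.82e-09). Mycl was not called (-0.01 ± 0.10, adjusted p = 0.954). The summed MYC family was 31.9 ± 2.39 CPM per kilobase at D8 and 48.4 ± 0.460 in rES. Ldha, a glycolytic enzyme gene, was one of the 2 targets that were lower, at 216 ± 4.09 CPM in rES, against 333 ± 39.8 CPM at D8, and stood at 2162 ± 82.3 CPM in EpiSC. Of 10 heat shock and handling stress genes 8 were higher and 1 lower at D3 than in EpiSC (median 0.49, against 0.00 over all genes), and 8 were higher and 2 lower in rES (median 0.86, against -0.09), to be read against the same shares of all genes. Single genes of this list changed far more than its median. At D3 the log2 difference from EpiSC was 6.70 ± 0.19 for Hspa1b and 3.56 ± 0.11 for Hspb1. Hspa1b averaged 28.2 ± 3.54 CPM at D3 and 0.27 ± 0.0879 CPM in EpiSC. Hspa1a averaged 9.94 ± 1.95 CPM at D3, with an EpiSC mean below the floor. The part of handling in the members' levels was not tested. Of 12 other AP-1 and zipper partners tested (of 13 listed, Fosl2 among them) 7 were higher and 1 lower at D3 than in EpiSC (median 1.95), and 1 was higher and 8 lower in rES than at D8 (median -2.70). Of 13 MYC network genes 6 were higher and 6 lower at D3 than in EpiSC (median -0.21), and 5 were higher and 1 lower in rES than in ESC (median 0.18). The shares of all genes called higher and lower were 32.7% and 38.4% in rES against D8. They were 15.6% and 17.9% in rES against ESC.

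**Figure D4:**
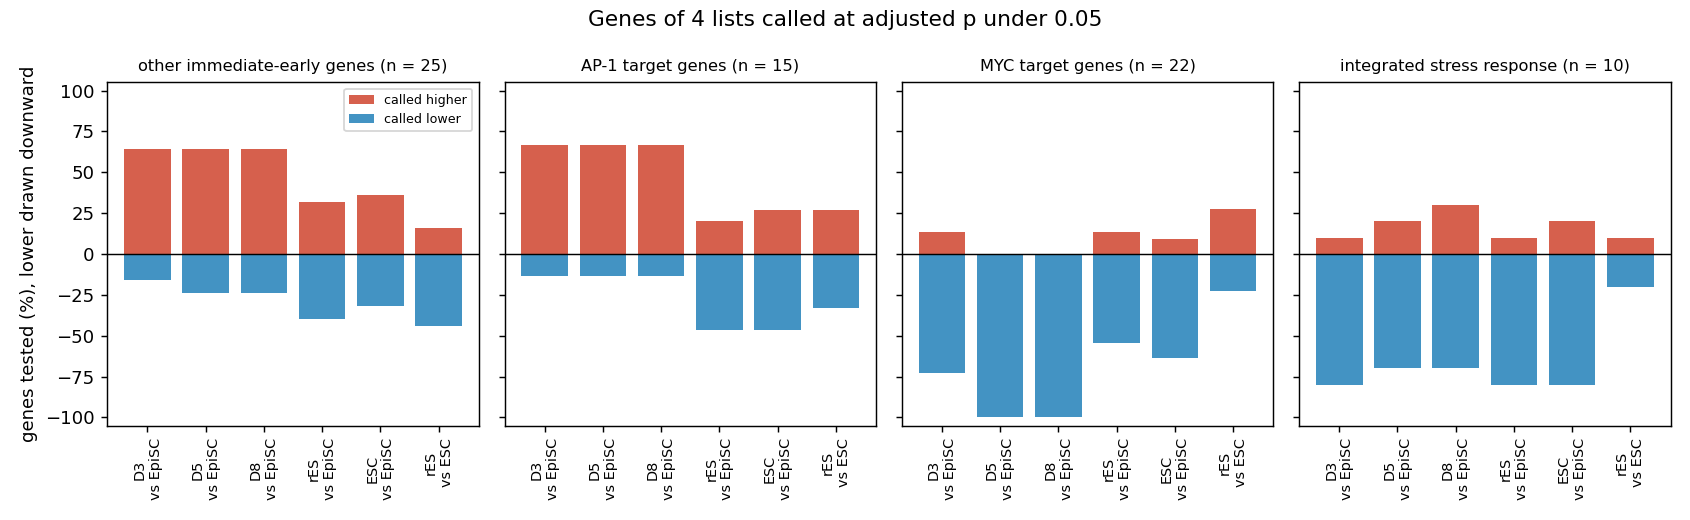
Share of the genes tested in 4 lists that were called higher (upward) or lower (downward) in 6 comparisons. All 22 MYC targets are lower at D5 and D8 than in EpiSC, and AP-1 targets are mostly higher at D3, D5 and D8 and more often lower in rES and ESC.

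The members' patterns over the 6 group means were compared with each other and with all genes, as a description over 6 points that share libraries and with no test. Fosb and Junb were the most alike pair (Pearson's r = 0.98 on mean log2 CPM), and Fos correlated at 0.96 with each of them. Fosl1 and Ier3 reached 0.91, Jun and Atf3 0.94, and Egr1 and Myc 0.82. Ier2 correlated negatively with Fos (-0.49), Fosb (-0.55) and Junb (-0.56). Among the other genes tested with at least 5 CPM in a group, those most like Fos were Col1a1 (0.9886), which is also one of the feeder fibroblast markers, and Eogt (0.9846). Those most like Fosb were Prrx1 (0.9912) and Naaa (0.9903), and those most like Junb were Emilin1 (0.9964) and Prrx1 (0.9936). Fosl1 was closest to Sh3kbp1 (0.9952) and Fam167a (0.9872), and Jun to Mthfsd (0.9892) and Tmem268 (0.983). Atf3 was closest to Brf1 (0.9912) and Loxl2 (0.9898), Egr1 to Steap2 (0.9963) and Zfp90 (0.9938), and Myc to Phpt1 (0.9957) and Stat6 (0.9929). Ier2 was closest to Tenm3 (0.9894) and Glo1 (0.9865), and Ier3 to Camta2 (0.996) and Tspan12 (0.9907).

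The spread of replicates differed between genes and groups. The SD was 1.75% of the mean for Ier2 in EpiSC, 48.1% for Fosb at D3, 72% for Egr1 in rES and 84.2% for Fosl1 at D5. No single library was highest or lowest throughout. EpiSC replicate 3 was the highest of its group for 6 of 10 members and the lowest for none, and D5 replicate 3 was the lowest for 7. The deepest library, D8 replicate 2, was the highest for none and the lowest for 4.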

How the data were processed

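Per the labels, ribosomal RNA was removed by probe-guided RNase H digestion, second-strand cDNA was digested, and libraries were read from both ends. Per the submitters' processing notes, reads were handled with bcl2fastq, Trim Galore and HISAT2 on mm10. The sources used here do not give the counting program, its annotation or its strand setting. The authors deposited expected counts, 1 whole number per symbol and library, not scaled. Low values bunch at 4 (a median of 314.5 genes per library with a count of 4, and 105.5 with 5). A much weaker peak lies at 8 (163, against 152.5 with 7 and 109 with 9). So 1 count may not be 1 fragment. A value of 12 counts was taken as the floor of a library, which covers counting error only. The ± values are SDs over libraries or standard errors of the fit.

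One model of all 18 libraries was fitted in edgeR 4.0.16 (R 4.3.3). Genes passed filterByExpr (17545 genes), TMM factors ran from 0.945 to 1.05, and calls used the quasi-likelihood F test and Benjamini-Hochberg adjustment over all genes tested. Standard errors were the log2 difference over the square root of F. The steps were also run on simulated data in which few genes changed, and in ESC alone. That run cannot tell how scaling and calls hold where as many genes are called as here. Genes open to naming were the 10 members, the 2 genes most like each, family relatives and a part of each list. That part was the up to 3 called genes with the largest differences in D5 or ESC against EpiSC and at least 5 CPM. Not all of these list genes are named in the text. Ccdc85b and Prdx2 were named as overlapping genes, and Col1a1 and others as cell type markers. The members and lists were chosen with earlier results of these data known. Replicate numbers were not used to pair the libraries in the main model. Alternatives were RLE scaling, no filter, DESeq2 1.42.0, groups fitted alone, a replicate block, counts divided by 4, each library left out, and shares not divided by length.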

Additional observations from a re-analysis of the deposited data

How the results depend on the processing

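In the 9 comparisons, the numbers of members called higher and lower stayed within 1.5 times under RLE scaling, no low-count filter, DESeq2, the 2 groups fitted alone, counts divided by 4, the replicate block and each library left out. Of 539 values of single members under the first 6 kinds of change, 527 kept their direction and side of the threshold, 7 lost their call, 3 gained one and 2 changed sign. Of 1620 values with 1 library left out the numbers were 1588, 24, 4 and 4. The changes of sign were all in Ier3 at D5 against EpiSC, a difference that was not called: it was 0.02 with RLE scaling, 0.02 with DESeq2 and -0.15 to 0.12 with 1 library left out. With the 2 groups fitted alone, rES against EpiSC was no longer called for Fos (adjusted p = 0.0595) or Fosb (0.0889), nor was D5 against EpiSC for Fosl1 (0.115). With counts divided by 4, Fosb missed in rES against EpiSC (0.105) and ESC against EpiSC (0.0604). The causes were not tested.

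Replicate numbers shared across groups gave residual correlations of -0.061 to 0.053 over 45 pairs, and the best match carried the same number for 6 of the 18. These values cannot say whether libraries of the same number shared a culture or batch. With the replicate block, rES against EpiSC had 10 members lower and rES against ESC 9, as without it, and no call among the members changed. RLE scaling moved the median of all genes to 0.277 in D8 against EpiSC, where it was 0.188 with TMM. Shares without division by length put Fos at 71.7% of the FOS family in ESC and 10.8% at D8, with Fosl2 at 87.2%. They put Fos below Fosl2 at D3 (23.6% against 54.7%) and in rES (43.7% against 50.7%), where it was above Fosl2 per length. Depth limits Fosl1 in rES, ESC and D5 and Fosb in rES, which lie at or near the floor. It also limits Egr1 in rES replicate 1, with 11 counts.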
